A study of Rattus norvegicus with 18 samples.

Results

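The main arms of the let-7 microRNA family were described in rat liver: the 8 entries rno-let-7a-5p, rno-let-7b-5p, rno-let-7c-5p, rno-let-7d-5p, rno-let-7e-5p, rno-let-7f-5p, rno-let-7g-5p and rno-let-7i-5p (written below without the rat prefix), taken by name from a deposited table of 401 mature microRNAs (miRNAs). A main arm is the strand of the miRNA hairpin that is found at the higher level, here the 5p strand. The table covers 18 small RNA libraries of liver in 3 groups of 6, all labelled as 8 weeks of age and as strain ZDF-Leprfa/Crl. The vehicle group held obese Zucker diabetic fatty (ZDF) rats given a vehicle, and the colesevelam group held obese ZDF rats given colesevelam, which takes up bile acids in the intestine. The lean group has the phenotype label lean and no agent label, and it carries the strain label of the obese rats. Only that phenotype and the names in its titles, descriptions and column headers mark it as lean. The study was designed to look at liver miRNA changes between ZDF rats on vehicle and on colesevelam.

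No label ties a library to an animal of its own, so each p-value here reflects variation between libraries that may be technical. The descriptions carry a number that some libraries of a group share (4 numbers in lean, 5 in vehicle, 4 in colesevelam), and what it marks is not given in the sources used here. Libraries held 110352 to 881452 miRNA counts in lean, 37910 to 147313 in vehicle and 32936 to 122881 in colesevelam, so lean libraries were in general the deeper ones. The liver label was checked on 5 hepatocyte miRNAs fixed by name, such as miR-122-5p and miR-192-5p: all 5 were tested and together they held 22.6% to 45.2% of a library's counts.

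Members of the let-7 family are processed from hairpins at many loci, and they guide Argonaute to messenger RNAs whose untranslated regions pair with the seed, a short run of bases near the 5′ end of the miRNA. Their best known targets include Lin28, Hmga2, Myc and Ras genes, and the Lin28 proteins in turn bind let-7 hairpins and block their processing. The family is low in embryonic and high in differentiated tissue, adult liver included, and it has been linked to insulin signalling and glucose handling.

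The sequences are shown first, since all comparisons within the family rest on reads that differ by a few bases. Each is the mature sequence as deposited, written with T for U, 5′ to 3′, with the seed (bases 2 to 8) in capitals. The 8 of 8 members have the same sequence in the RefSeq table for GRCr8.
let-7a-5p: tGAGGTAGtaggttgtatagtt
let-7b-5p: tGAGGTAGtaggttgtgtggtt
let-7c-5p: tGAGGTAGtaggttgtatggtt
let-7d-5p: aGAGGTAGtaggttgcatagtt
let-7e-5p: tGAGGTAGgaggttgtatagtt
let-7f-5p: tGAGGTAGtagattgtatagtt
let-7g-5p: tGAGGTAGtagtttgtacagtt
let-7i-5p: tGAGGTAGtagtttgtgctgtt
miR-98-5p: tGAGGTAGtaagttgtattgtt

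All 9 sequences share the seed GAGGTAG, and miR-98-5p is the one further entry of the table that carries it. All members are 22 bases long. Counted from 1 at the 5′ end and with let-7a-5p as the reference, let-7c-5p differs by A19G, let-7b-5p by A17G and A19G, let-7e-5p by T9G and let-7f-5p by G12A. let-7d-5p differs by T1A and T16C, let-7g-5p by G12T and T18C, and let-7i-5p by G12T, A17G, T18C and A19T. Of the 28 pairs of members, 4 are 1 base apart and 8 are 2 bases apart, and the largest distance is 6 bases, between let-7d-5p and let-7i-5p. GC content is 31.8% in let-7f-5p, 36.4% in let-7a-5p and let-7g-5p, 40.9% in let-7c-5p, let-7d-5p, let-7e-5p and let-7i-5p, and 45.5% in let-7b-5p.

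Reads of such near-identical miRNAs can be split between them, and the deposited counts show fractions here. Of the 144 values of the members, 109 (75.7%) are not whole numbers, against 188 of the 7074 values elsewhere in the table (2.66%). The fractions touched let-7a-5p and let-7c-5p in 17 of 18 libraries each and let-7i-5p in 4. The rule that divided the reads is not given in the sources used here, so each member's level is uncertain to the extent that reads of its relatives were assigned to it.

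The deposited table places the members at 11 positions, in a build that the sources used here do not name. let-7a-5p is listed at chr17:18473978-18473999 and chr8:44228482-44228503, let-7f-5p at chr17:18474341-18474362 and, on the minus strand, at chrX:21868563-21868584, and let-7d-5p at chr17:18476106-18476127. On chromosome 17 the starts of let-7a-5p and let-7f-5p lie 363 bases apart and those of let-7a-5p and let-7d-5p 2128 bases apart, which is the cluster known in mammals to give one primary transcript. let-7c-5p is listed at chr7:126300934-126300955, 408 bases before let-7b-5p at chr7:126301342-126301363, and at chr11:19708158-19708179, where miR-99a-5p lies 723 bases away. let-7e-5p at chr1:60624053-60624074 lies 173 bases from miR-99b-5p and 446 bases from miR-125a-5p. let-7g-5p is at chr8:114237845-114237866 and let-7i-5p at chr7:67000241-67000262, with no other member near them. In the GRCr8 RefSeq annotation, used for names only, the let-7e locus lies within Spaca6, the let-7g locus within Wdr82 and Rpl29, and the X-chromosomal let-7f locus within Huwe1, where miR-98-5p lies 611 bases away. The 3 loci on chromosome 17 lie within the long non-coding RNA LOC120097935, and no gene spans let-7b there. Counts of let-7a-5p, let-7c-5p and let-7f-5p cannot be assigned to 1 of their 2 loci.

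The members made up 6.31% of all counts in the table. Levels are given as CPM, counts set to one common library total and scaled by TMM, which sets libraries to a common scale on the assumption that most miRNAs do not differ. let-7f-5p was the most abundant member, at 33120 ± 8843 CPM (mean ± SD over 18 libraries), and was rank 11 among the 401 miRNAs. It was followed by let-7a-5p at 15096 ± 4887 CPM (rank 15), let-7c-5p at 11586 ± 4694 CPM (rank 17) and let-7g-5p at 6402 ± 1607 CPM (rank 23). let-7i-5p stood at 2408 ± 476 CPM, let-7b-5p at 1733 ± 778 CPM, let-7d-5p at 1153 ± 428 CPM and let-7e-5p, the lowest, at 320 ± 137 CPM (rank 82). The order was not the same in every library. let-7f-5p exceeded let-7a-5p, let-7g-5p exceeded let-7i-5p and let-7d-5p exceeded let-7e-5p in 18 of 18 libraries. let-7c-5p exceeded let-7g-5p in 17, let-7a-5p exceeded let-7c-5p in 16, let-7i-5p exceeded let-7b-5p in 16 and let-7b-5p exceeded let-7d-5p in 14 of 18. The ranges of each neighbouring pair over all libraries overlapped, and the order of let-7b-5p and let-7d-5p held in the fewest libraries. All members are of 1 length, so these levels can be set side by side between miRNAs as far as reads of each sequence were captured alike.

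**Figure D1:**
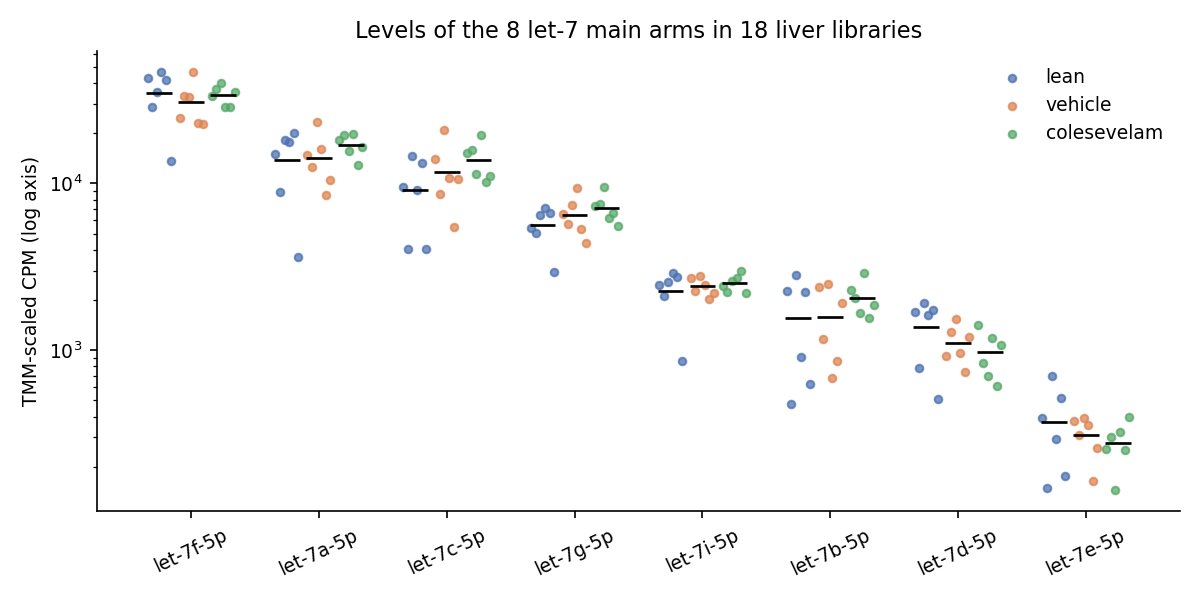
TMM-scaled CPM (log axis) of the 8 let-7 main arms, ordered by mean level; each point is 1 library, coloured by group (lean, vehicle, colesevelam; 6 libraries each), and bars are group means. The 3 groups overlap for every member, and the lowest lean point of let-7a-5p, let-7f-5p and let-7g-5p is lean 6.

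let-7f-5p lay at 13725, 38325 and 46606 CPM (lowest, median and highest library) in lean, at 22710, 28881 and 46807 CPM in vehicle and at 28574, 34362 and 40230 CPM in colesevelam. let-7a-5p, which comes from the same cluster, lay at 3608, 16301 and 20013 CPM in lean, at 8518, 13739 and 23215 CPM in vehicle and at 12954, 17401 and 19722 CPM in colesevelam. The groups overlapped for both, and colesevelam libraries had the narrowest range, 1.41-fold for let-7f-5p and 1.52-fold for let-7a-5p, against 3.40-fold and 5.55-fold in lean. The low end in lean came from 1 library, lean 6, which held the lowest let-7a-5p, let-7f-5p, let-7g-5p, let-7i-5p and let-7d-5p of its group, with let-7a-5p at 3608 CPM against 8836 to 20013 CPM in the other 5.

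let-7c-5p lay at 4026, 9347 and 14577 CPM in lean, at 5487, 10679 and 20953 CPM in vehicle and at 10146, 13242 and 19615 CPM in colesevelam. let-7b-5p, its neighbour on chromosome 7, lay at 477, 1576 and 2836 CPM in lean, at 677, 1547 and 2508 CPM in vehicle and at 1554, 1954 and 2890 CPM in colesevelam. The 6 colesevelam libraries lay above the lowest 4 lean libraries for let-7c-5p and above the lowest 3 for let-7b-5p, and the upper parts of the groups overlapped. let-7d-5p ran the other way in its medians, at 507, 1661 and 1929 CPM in lean, at 745, 1079 and 1549 CPM in vehicle and at 612, 959 and 1411 CPM in colesevelam. let-7e-5p lay at 150, 342 and 696 CPM in lean, at 163, 335 and 393 CPM in vehicle and at 144, 279 and 398 CPM in colesevelam, resting on as few as 9.3 counts in a library. Group means of let-7g-5p were 5622 ± 1530, 6458 ± 1780 and 7125 ± 1381 CPM and those of let-7i-5p 2279 ± 744, 2416 ± 302 and 2530 ± 294 CPM in lean, vehicle and colesevelam (SD, n = 6 each).

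No let-7 main arm changed by the test in any of the 3 comparisons. All 8 were among the 112 miRNAs tested, by the quasi-likelihood test of edgeR with p-values adjusted over the 112 after Benjamini and Hochberg and a threshold of 0.05. The 3 comparisons share groups, so their values are given side by side and not as independent results. In bulk liver, fewer cells of a type and less RNA per cell cannot be told apart.

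The first comparison sets obese rats on vehicle against lean rats. There 0 of 8 members were called, beside 6.25% of all miRNAs tested, 0 had an unadjusted p under 0.05 (18.8% of all tested) and 0 had groups without overlap (2.68% of all tested). DESeq2 called 0 of 8, beside 2% of the miRNAs it tested. Of the log2 fold changes, 5 were above and 3 below 0, with a median of 0.03 against 0.01 over all miRNAs tested. let-7c-5p was at 0.37 ± 0.32 (log2 ± SE) and let-7d-5p at −0.32 ± 0.30, and the smallest edgeR adjusted p was 0.625. Without 1 library let-7c-5p ranged from 0.021 to 0.56, and the low end was without vehicle 3, where it lay below let-7g-5p at 0.082. let-7f-5p, the most abundant member, was at −0.18 ± 0.24, with a 95% interval of −0.69 to 0.32.

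The second comparison sets colesevelam against vehicle in obese rats. Again 0 of 8 members were called, beside 10.7% of all miRNAs tested, 0 had an unadjusted p under 0.05 (21.4% of all tested) and 0 had groups without overlap (5.36% of all tested). DESeq2 called 0 of 8, beside 7.65% of the miRNAs it tested. Here 6 log2 fold changes were above and 2 below 0, with a median of 0.14 against −0.01 over all tested. let-7b-5p was at 0.37 ± 0.40 and let-7d-5p at −0.21 ± 0.31, and the smallest edgeR adjusted p was 0.691. Without vehicle 3 they were at 0.66 and −0.029. The narrowest intervals were those of let-7i-5p, −0.38 to 0.52, and let-7g-5p, −0.31 to 0.60, so a rise of more than 1.52-fold was outside both intervals. For let-7b-5p the interval ran from −0.45 to 1.19, and a 2.28-fold rise was within it.

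Colesevelam against lean gave 0 of 8 members called, beside 21.4% of all miRNAs tested, 0 with an unadjusted p under 0.05 (39.3% of all tested) and 0 with groups without overlap (8.04% of all tested). DESeq2 called 0 of 8, beside 15.4% of the miRNAs it tested. The log2 fold changes spread wider, 5 above and 3 below 0, with a median of 0.23 against −0.08 over all tested. let-7c-5p was at 0.61 ± 0.32, with an interval of −0.07 to 1.28 and the smallest edgeR adjusted p of the 8, 0.174. let-7d-5p was at −0.52 ± 0.30 (interval −1.15 to 0.10, edgeR adjusted p = 0.208) and let-7e-5p at −0.42. let-7f-5p was at −0.04 ± 0.24, and under 5 other settings its value was above 0.

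**Figure D2:**
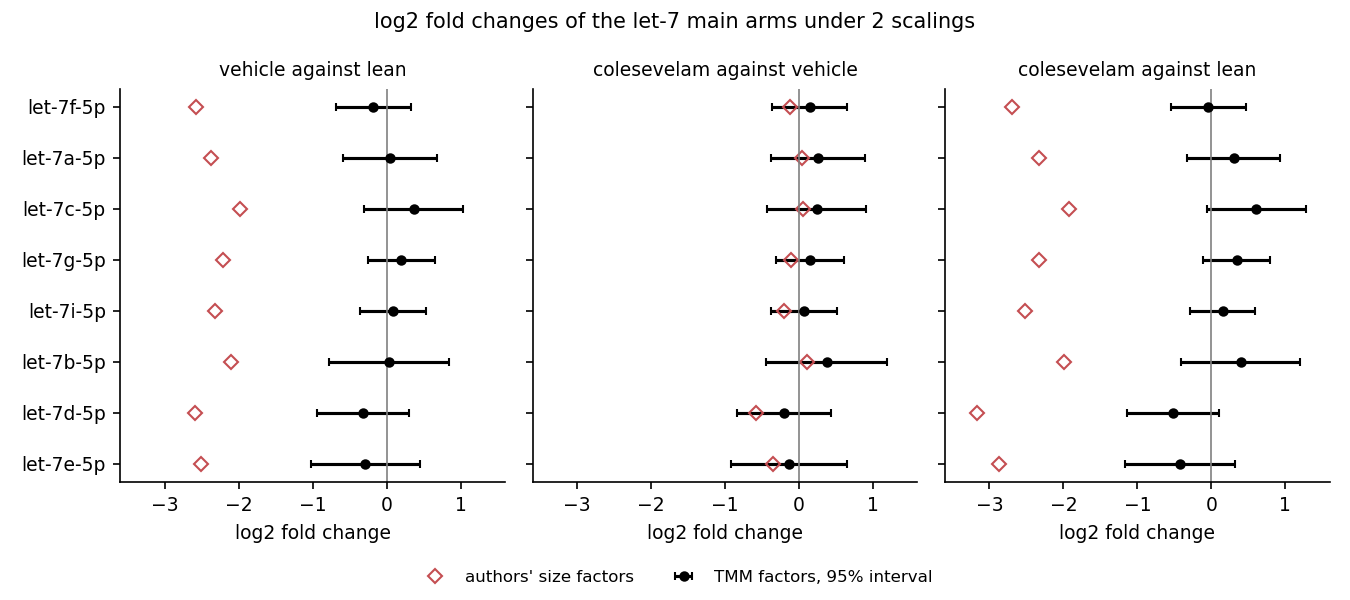
log2 fold changes of the 8 members in the 3 comparisons; black points with bars are TMM-scaled edgeR estimates with 95% intervals, red diamonds the same fit with the authors' size factors. With TMM all 24 intervals include 0; with the authors' factors the 2 comparisons with lean sit between −1.93 and −3.17.

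The values against lean turn on the scaling, as the size factors behind the authors' deposited table do not follow the miRNA totals. The authors' deposited table marks all 8 members as significantly lower in vehicle than in lean, with log2 fold changes from −1.98 for let-7c-5p to −2.59 for let-7d-5p, and all 8 as lower in colesevelam than in lean, from −1.93 for let-7c-5p to −3.18 for let-7d-5p. Between colesevelam and vehicle the authors' deposited table marks none, with let-7d-5p at −0.58. The size factors recovered from the deposited means ran from 0.712 to 1.38 over the 18 libraries, with the lowest in lean and the highest in colesevelam, while total counts ran from 32936 to 881452. With these factors edgeR called 8 of 8 members lower against lean in each comparison, beside 97.3% of all miRNAs tested called lower for vehicle and 96.4% for colesevelam, and 0 of 8 between the obese groups, beside 1.79%. The median log2 fold change of all tested miRNAs was then −2.38, −2.76 and −0.36 for vehicle against lean, colesevelam against lean and colesevelam against vehicle. Relative to that median the members stood in vehicle against lean between −0.21 (let-7d-5p) and 0.40 (let-7c-5p), and in colesevelam against lean between −0.42 (let-7d-5p) and 0.83 (let-7c-5p). Whether the total of miRNA per cell differed between groups was not tested.

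A measure that needs no scaling is the share of a library's miRNA counts held by the 8 members together. Lean libraries gave 6.97 ± 2.81%, vehicle libraries 7.07 ± 1.70% and colesevelam libraries 7.55 ± 1.44% (mean ± SD, n = 6 each). Libraries ran from 2.63% (lean 6; 95% Wilson interval 2.55% to 2.71%) to 9.44% in lean, from 4.81% to 9.87% in vehicle and from 5.17% to 8.65% in colesevelam, so the groups overlapped throughout. Differences were 0.105 points for vehicle against lean (two-sided exact permutation p = 0.948), 0.476 points for colesevelam against vehicle (exact permutation p = 0.580) and 0.581 points for colesevelam against lean (exact permutation p = 0.660), and each had an adjusted p of 0.948 over the 3 exact tests. Without lean 6 the difference of vehicle from lean was −0.763 points and that of colesevelam from lean −0.287 points. That of colesevelam from vehicle ranged from 0.0238 points without vehicle 5 to 1.04 points without vehicle 3, and it was 0.963 points with miR-192-5p left out of the total. Such an interval holds counting error alone, and without molecular identifiers reads need not be separate molecules.

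Within the family, let-7f-5p held 46.6% of the let-7 counts on average over the 18 libraries (35.3% to 57.4%), let-7a-5p 20.5%, let-7c-5p 15.9%, let-7g-5p 9.09%, let-7i-5p 3.44%, let-7b-5p 2.41%, let-7d-5p 1.62% and let-7e-5p 0.450%. The make-up was compared member by member in 24 exact permutation tests, and 0 shares passed an adjusted p of 0.05. The smallest p was that of let-7d-5p, at 1.24 ± 0.359% of the family in colesevelam and 1.96 ± 0.258% in lean (exact permutation p = 0.00433, adjusted 0.104); its 6 colesevelam libraries lay at 0.853% to 1.76% and its 6 lean libraries at 1.56% to 2.34%. let-7f-5p was at 43.6 ± 4.93% in colesevelam and 51.1 ± 5.42% in lean (exact permutation p = 0.0368, adjusted 0.390), and let-7c-5p at 17.7 ± 3.69% and 13.1 ± 3.55% (exact permutation p = 0.0519, adjusted 0.390).

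**Figure D3:**
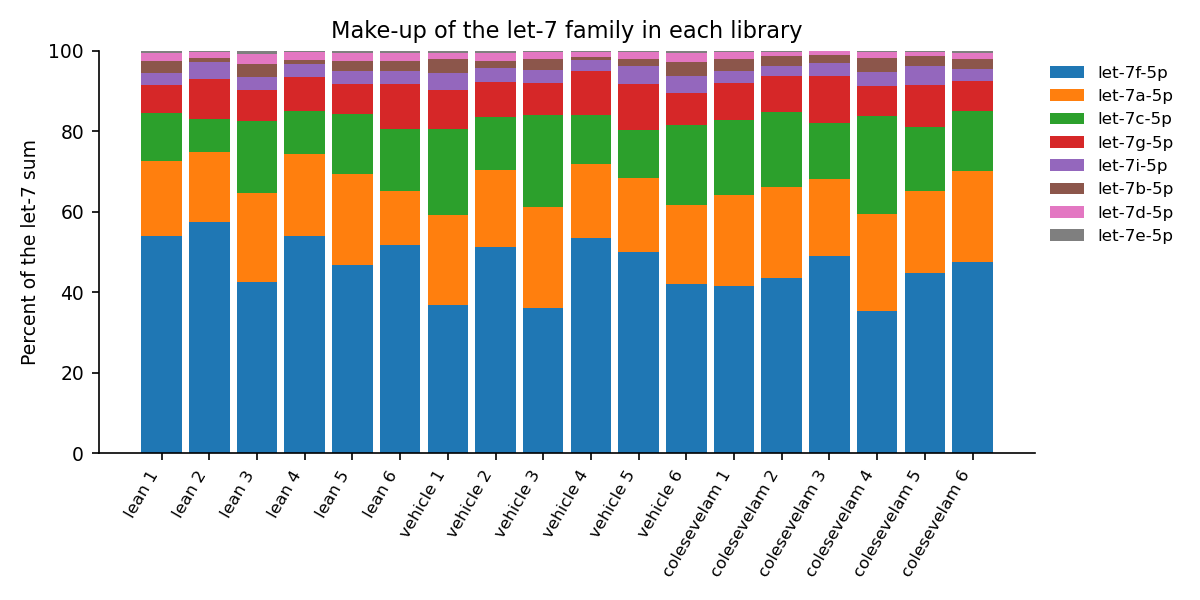
Percent of the summed let-7 counts held by each member (stacked bars) in each of the 18 libraries. let-7f-5p is the largest part of every bar, from 35.3% to 57.4%, and let-7d-5p and let-7e-5p are the thin top bands.

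When each member was instead set against the geometric mean of the other 7 in its library, 2 members passed in colesevelam against lean. let-7c-5p was higher by 0.57 on the log2 scale and let-7d-5p was lower, at −0.75, and in both cases no colesevelam library overlapped a lean one (exact permutation p = 0.00216 each, the smallest that 6 against 6 allows, adjusted 0.0260). Both kept their direction in all 12 tests that left out 1 library of these groups, and both were past the threshold in 3 of them, without colesevelam 3, 5 or 6 (let-7c-5p 0.48 to 0.63, let-7d-5p −0.86 to −0.67; adjusted exact p 0.0260 to 0.0519). Since the full groups did not overlap, the groups stayed apart in all 12. The exact permutation p was 0.00216 or 0.00433 in each, the lowest steps that 5 against 6 allows, and the calls turned on these steps. The counts of libraries that share 1 number in their descriptions were also summed, and neither member passed. let-7c-5p was then at 0.49 and let-7d-5p at −0.65 (exact permutation p = 0.0286 each, the smallest that 4 against 4 allows, adjusted 0.343). On this measure vehicle stood between, with let-7d-5p at −0.33 against lean (exact permutation p = 0.0346, adjusted 0.234) and colesevelam at −0.42 against vehicle (exact permutation p = 0.0649, adjusted 0.234).

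Within the chromosome 17 cluster, let-7a-5p rose relative to let-7d-5p from lean to colesevelam. Ratios were formed within each library for miRNAs known to be cut from one primary transcript (7 ratios in 3 comparisons, 21 exact permutation tests). The rise of miR-99b-5p and miR-99a-5p in these data was known when the ratios were chosen. The counts of let-7a-5p over let-7d-5p were 7.08, 10.1 and 11.5 (lowest, median and highest library) in lean, 8.73, 13.1 and 16.7 in vehicle and 12.8, 18.8 and 23.1 in colesevelam. All 6 colesevelam libraries were above all 6 lean libraries, and vehicle libraries overlapped both. The geometric mean rose 1.87-fold from lean to colesevelam, from 9.68 to 18.1 (log2 difference 0.90, exact permutation p = 0.00216, adjusted 0.0455). The call held in 12 of 12 tests without 1 library (log2 difference 0.81 to 1.00, adjusted exact p 0.0227 to 0.0455). Since the full groups did not overlap, leaving out a library could not make them overlap, so these 12 calls are not added support. Vehicle, at a geometric mean of 12.5, did not differ by the test from lean (log2 difference 0.37, exact permutation p = 0.0823, adjusted 0.214) or from colesevelam (0.53, exact permutation p = 0.0303, adjusted 0.159). With libraries of one label number summed, the 4 colesevelam values (12.8 to 22.7) still lay above the 4 lean values (7.08 to 11.0), at an exact permutation p of 0.0286, the smallest that 4 against 4 allows (adjusted 0.200). This ratio is not separate from the let-7d-5p difference given above. Set against the other members, let-7d-5p was at −0.75 and let-7a-5p at 0.28 (exact permutation p = 0.0628, adjusted 0.234) in colesevelam against lean.

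let-7a-5p also has its locus on chromosome 8, so this ratio is not one of a single transcript, and both miRNAs can take up divided reads. The third member of the cluster, let-7f-5p, did not differ by the test from either partner: let-7a-5p over let-7f-5p had geometric means of 0.372 in lean, 0.459 in vehicle and 0.503 in colesevelam (colesevelam against lean, exact permutation p = 0.0476, adjusted 0.200), and let-7f-5p over let-7d-5p 26.0, 27.2 and 35.9 (exact permutation p = 0.0974, adjusted 0.214). Depth and the leukocyte and bile duct marker lists moved with the groups compared here. The hepatocyte, erythroid, endothelial, stromal and muscle lists overlapped between lean and colesevelam. Lean libraries held 110352 to 881452 counts and colesevelam libraries 32936 to 122881. The 4 leukocyte miRNAs, all in the table and none at 0 throughout a group, summed to 0.166% to 0.324% of counts in lean and 0.0771% to 0.124% in colesevelam, and the 4 bile duct miRNAs to 0.0339% to 0.0579% and 0.0114% to 0.0243%. Of these, 2 of the 4 leukocyte miRNAs and 1 of the 4 bile duct miRNAs passed the count filter. The part of depth and of these lists in the ratio was not tested.

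**Figure D4:**
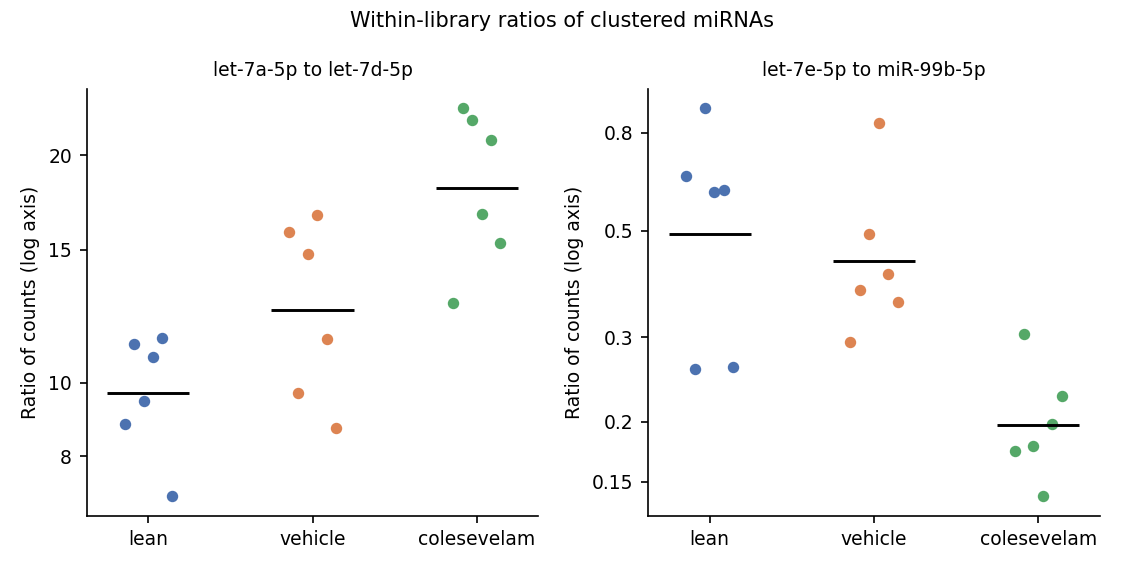
Ratios of counts within a library (log axes) for let-7a-5p to let-7d-5p (left) and let-7e-5p to miR-99b-5p (right); points are libraries by group and bars geometric means. On the left the colesevelam libraries (12.8 to 23.1) lie above the lean ones (7.08 to 11.5); on the right the colesevelam libraries lie at 0.140 to 0.304.

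On chromosome 1, let-7e-5p was lower relative to its neighbour miR-99b-5p in colesevelam than in vehicle, a call lost in most tests without 1 library. The counts of let-7e-5p over those of miR-99b-5p were 0.257, 0.604 and 0.898 in lean, 0.293, 0.391 and 0.837 in vehicle and 0.140, 0.188 and 0.304 in colesevelam. They rested on as few as 9.3 let-7e-5p counts in a colesevelam library and 21 miR-99b-5p counts in a vehicle library. The highest colesevelam library passed the lowest vehicle library and 2 lean libraries, and the other 5 lay below every vehicle library. The geometric mean was 2.19-fold lower in colesevelam than in vehicle, 0.197 against 0.432 (log2 difference −1.13, exact permutation p = 0.00433, adjusted 0.0455), and the call was lost in 10 of 12 tests that left out a library, held only without vehicle 1 or colesevelam 2 (log2 difference −1.26 to −0.94, adjusted exact p 0.0227 to 0.0682). Against lean the log2 difference was −1.32 (exact permutation p = 0.00866, adjusted 0.0606). The 2 miRNAs of this ratio moved unequally: miR-99b-5p itself was higher in colesevelam than in vehicle by 0.99 ± 0.30 on the log2 scale (edgeR adjusted p = 0.0340), and let-7e-5p was at −0.14 ± 0.38. The rise of miR-99b-5p was known when this ratio was chosen, so the test of the ratio is not independent of that rise.

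The other ratios did not pass. let-7e-5p over miR-125a-5p, the next miRNA of that cluster, had geometric means of 0.230 in lean, 0.203 in vehicle and 0.158 in colesevelam. let-7c-5p over miR-99a-5p had 16.5, 24.7 and 15.8, although miR-99a-5p alone was higher in colesevelam than in vehicle by 1.02 ± 0.25 on the log2 scale (edgeR adjusted p = 0.0114) and its groups did not overlap. let-7f-5p over miR-98-5p, which share the X-chromosomal locus, had 97.5, 112 and 74.6. The ratio of let-7a-5p to miR-100-5p, its neighbour on chromosome 8 in mammals, was not tested, since miR-100-5p had 110 counts over all libraries.

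Members did not vary alike from library to library. With group means taken out, the SD of the log2 ratio of a pair over the 18 libraries was smallest for let-7f-5p and let-7g-5p (0.234, of which counting alone gives 0.0739), let-7g-5p and let-7i-5p (0.278) and let-7f-5p and let-7i-5p (0.303). It was largest for let-7b-5p with let-7f-5p (0.833, counting alone 0.138) and with let-7g-5p (0.818). let-7f-5p, let-7g-5p and let-7i-5p are the 3 members without G at position 12. This grouping was made after the values were seen: the 3 pairs among them had a median SD of 0.278, the 10 pairs among the other 5 members 0.421 and the 15 mixed pairs 0.541. In 8 of the 28 pairs the SD was under 2 times that of counting alone, and 7 of these 8 hold let-7e-5p, the least abundant member. Without let-7e-5p the median was 0.40 over 6 pairs among the other 4 members and 0.513 over 12 mixed pairs, also computed after the values were seen. let-7b-5p and let-7c-5p, which are 1 base apart and neighbours on chromosome 7, had an SD of 0.418.

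The ratios of let-7a-5p, let-7b-5p and let-7c-5p to let-7f-5p moved with how the other miRNAs of a library depended on GC content. They share let-7f-5p, so they are not independent of each other. The ratios of let-7d-5p, let-7e-5p, let-7g-5p and let-7i-5p to let-7f-5p were not tested in this way. Of these, let-7g-5p has the GC content of let-7a-5p, and let-7i-5p that of let-7c-5p. For each library the slope of log2 CPM on GC content was taken over the tested miRNAs other than the 8 members and miR-98-5p, in log2 units per 10 points of GC, and it ran from −0.47 (lean 6) to 0.48 (vehicle 1). These relations were chosen after the values were seen, 16 in all. The log2 ratio of let-7b-5p, the member highest in GC, to let-7f-5p, the lowest, correlated with this slope over the 18 libraries with group means taken out (Pearson r = 0.769, permutation p = 0.00024, adjusted 0.00384; Spearman rho = 0.728, permutation p = 0.00106, adjusted 0.0107). Without the 2 libraries farthest from the median slope r was 0.804, and within groups of 6 libraries it was 0.691 for lean, 0.921 for vehicle and 0.738 for colesevelam. let-7c-5p to let-7f-5p gave r = 0.652 (permutation p = 0.00476, adjusted 0.0190; rho = 0.610, permutation p = 0.00821, adjusted 0.0438; r = 0.700 without the 2 farthest; 0.478, 0.809 and 0.672 within groups). let-7a-5p to let-7f-5p gave r = 0.726 (permutation p = 0.00098, adjusted 0.00784; rho = 0.709, permutation p = 0.00134, adjusted 0.0107; r = 0.639 without the 2 farthest; 0.724, 0.695 and 0.806 within groups). For the let-7 share of counts r was 0.478 (permutation p = 0.0456, adjusted 0.104; rho = 0.414, permutation p = 0.0884, adjusted 0.202; r = 0.468 without the 2 farthest; 0.815 in lean, 0.0567 in vehicle and 0.319 in colesevelam).

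**Figure D5:**
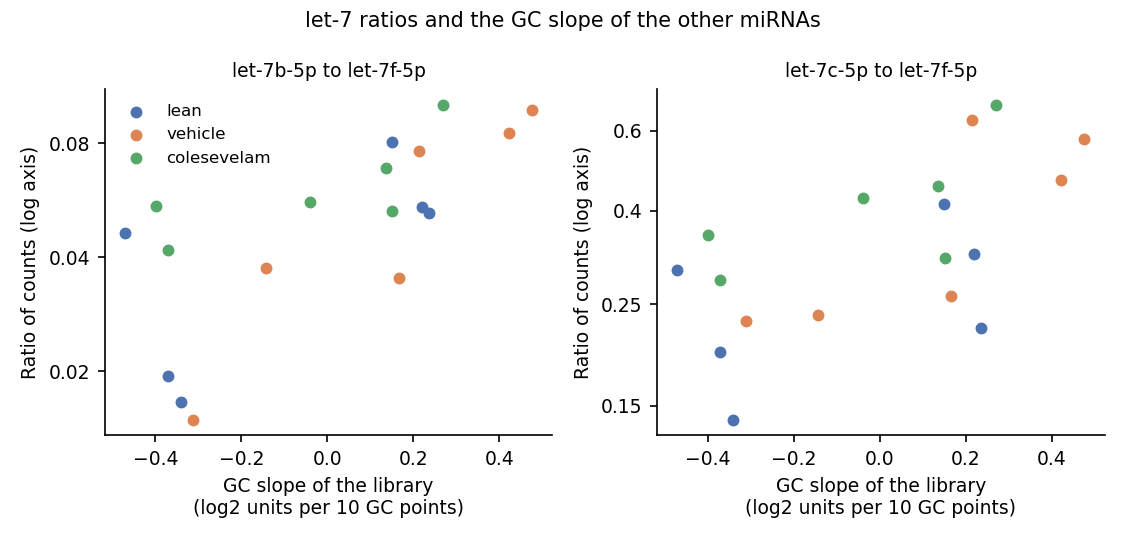
Ratio of let-7b-5p (left) and let-7c-5p (right) to let-7f-5p in counts (log axis) against the GC slope of the library's other miRNAs (log2 units per 10 GC points); points are the 18 libraries by group. Both ratios are higher in libraries with a higher slope, with r = 0.769 and 0.652 after group means are taken out.

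Slopes averaged −0.10 ± 0.33 for lean, 0.14 ± 0.31 for vehicle and −0.04 ± 0.28 for colesevelam (SD, n = 6 each), with an exact permutation p of 0.236, 0.320 and 0.814 for vehicle against lean, colesevelam against vehicle and colesevelam against lean. A slope of the same kind, but taken over all 112 tested miRNAs with the members included, served as a covariate in edgeR. With this covariate 1 member was called in colesevelam against vehicle: let-7b-5p at 0.94 on the log2 scale (edgeR adjusted p = 0.0124). It stood beside 21.4% of all miRNAs called with this covariate. For let-7b-5p the other 25 settings gave adjusted p-values of 0.383 to 0.960. Its 6 colesevelam libraries (1554 to 2890 CPM) and 6 vehicle libraries (677 to 2508 CPM) overlap before the covariate.

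Most other entries of the family were low. let-7d-3p and miR-98-5p, at means of 665 and 365 CPM over the 18 libraries, lay above the main arm let-7e-5p at 320 CPM. Of 11 related entries (let-7 minor arms and both arms of miR-98), 2 were tested and 0 called in any comparison. Over all miRNAs tested, 6.25% were called in vehicle against lean, 10.7% in colesevelam against vehicle and 21.4% in colesevelam against lean. With 2 entries, 0 called is near these shares. let-7d-3p, the minor arm of the let-7d hairpin, had 1412 counts in all libraries, and let-7d-5p had 2.14 times as many. let-7d-3p was at −1.01 ± 0.46 (log2 ± SE) in colesevelam against vehicle (edgeR adjusted p = 0.190), a difference that did not pass. miR-98-5p was at 0.76 ± 0.34 there (edgeR adjusted p = 0.190). The unadjusted edgeR p was 0.0389 for let-7d-3p and 0.0376 for miR-98-5p, and 21.4% of all miRNAs tested had one under 0.05 there. The other 9 entries had 3 to 188 counts each over all libraries.

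Among 59 tested miRNAs other than the 8 members with a mean of at least 500 CPM, let-7d-3p included, those most like the let-7 sum from library to library were miR-28-3p, miR-103-3p, miR-30d-5p, miR-26a-5p and miR-22-3p. The SD of their log2 ratio to the let-7 sum over the 18 libraries, with group means taken out, was 0.374, 0.386, 0.414, 0.428 and 0.437, against a median of 0.637 over the 59.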

How the data were processed

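Small RNA of rat liver was sequenced in 18 libraries, 6 per group, from frozen tissue with a Norgen RNA kit and an Illumina TruSeq RNA kit, per the labels' protocols. The deposited table holds the authors' estimated counts of 401 mature miRNAs, with no scaling between libraries (297 of 7218 values are not whole). It also holds mean scaled counts, log2 fold changes and p-values of the authors' 3 DESeq2 comparisons, with sequences and coordinates, per the file headers. Bowtie 1.1.2 and DESeq2 1.18.1 are named in the submitters' processing notes. Trimming, build, annotation and counter: not given in the sources used here.

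Counts were rounded to whole numbers. filterByExpr (minimum count 10, minimum total 15) left 112 of 401 miRNAs, which hold 99.5% of counts. After TMM scaling (factors 0.814 to 1.19), one robust quasi-likelihood fit of all 18 libraries was tested in edgeR 4.0.16 (R 4.3.3), with Benjamini-Hochberg adjustment over the 112 with 0.05 as the threshold (biological coefficient of variation 36.2%). Shares and ratios per library (unrounded counts, 0.5 added for log ratios) were compared with exact two-sided permutation tests, which enumerate the 924 splits of 12 libraries. Correlations over 18 libraries used 100000 permutations. The authors' size factors were recovered from 492 deposited means, of which 1 was not matched. A count of 0 allows up to 3 counts, 3.40 to 91.1 CPM by library. The edgeR and permutation steps were tested on simulated data.

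The members are named in all comparisons; related entries and neighbours are described by counts, with values for those tested, and the 5 most alike miRNAs by the SD of their ratio to the let-7 sum. Members, ratios, lists and tests were chosen with earlier results of these data known. Alternatives were other scalings (among them the authors' size factors), DESeq2 1.42.0, limma-voom (limma 3.58.1), other filters, a replicate block, summed label numbers, a GC covariate and leaving out each library; leaving the let-7 entries out of the scaling was added after seeing the data. Whether libraries of different groups with the same sample number in their titles deviate together was checked: of 18 such pairs, 6 correlated over 0.1. Whether libraries of a group that share a label number deviate together was not tested.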

Additional observations from a re-analysis of the deposited data

Results flagged for a closer look

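Of 51 sets of 6 libraries checked for a single value far from the others, 2 held one, and chance alone gives about 1 in 20, so these are near that rate. let-7i-5p made up 4.18% of the let-7 counts in lean 2 (95% Wilson interval 3.99% to 4.39%), against 3.10% to 3.36% in the other 5 lean libraries. It made up 4.70% in colesevelam 5 (interval 4.20% to 5.24%), against 2.64% to 3.32% in the other 5 colesevelam libraries. The cause was not tested.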

How the results depend on the processing

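Each of the 24 member fold changes was recomputed under 14 other settings and without each library. Of 336 values under other settings 30 changed sign, and of 288 without a library 21 did and 0 were called (smallest edgeR adjusted p 0.0506). The number of members called stayed 0 except with the authors' size factors (8 against lean in each obese group) and with the GC covariate (1 in colesevelam against vehicle). By construction the authors' factors move all miRNAs together. With them, vehicle against lean was −2.38 for let-7a-5p, −2.10 for let-7b-5p, −1.98 for let-7c-5p, −2.22 for let-7g-5p and −2.32 for let-7i-5p, colesevelam against lean −2.33, −1.99, −1.93, −2.33 and −2.52 for the same members, and colesevelam against vehicle −0.12 for let-7f-5p, −0.11 for let-7g-5p and −0.21 for let-7i-5p.

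The cause of the other sign changes was not tested. In vehicle against lean, let-7a-5p was at −0.019 with DESeq2, −0.017 without a filter and −0.045 with the GC covariate, and let-7b-5p at −0.035 with RLE factors, −0.060 with DESeq2, −0.046 without a filter, −0.0062 with miR-192-5p left out, −0.36 with the GC covariate and −0.0061 when the colesevelam libraries were not in the fit. In colesevelam against vehicle, let-7e-5p was at 0.14 with the GC covariate and let-7i-5p at −0.047 with library totals and −0.039 with miR-192-5p left out. In colesevelam against lean, let-7f-5p was at 0.033 with upper-quartile factors, 0.053 with limma-voom, 0.12 with a filter of 50 CPM, 0.13 with label numbers summed and 0.035 with a replicate block. Leaving out 1 library gave ranges of −0.24 to 0.16 (let-7a-5p), −0.25 to 0.30 (let-7b-5p), −0.46 to 0.0085 (let-7e-5p) and −0.087 to 0.14 (let-7i-5p) in vehicle against lean, −0.29 to 0.027 (let-7e-5p) in colesevelam against vehicle, and −0.20 to 0.065 (let-7f-5p) and −0.017 to 0.27 (let-7i-5p) in colesevelam against lean. The median over all miRNAs tested moved by more than 0.1 with the authors' factors and, by −0.36 at most, in 1 or 2 comparisons each with no filter, DESeq2, the 50 CPM filter, upper-quartile factors, library totals and miR-192-5p left out, and without lean 4, vehicle 3 or colesevelam 1.

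The let-7 share of vehicle against lean was −0.398 points with miR-192-5p out of the total and −0.0401 on TMM-scaled CPM, and ranged from −0.763 to 0.598 without 1 library; colesevelam against lean ranged from −0.287 to 1.07. Of the member shares 2 were called in colesevelam against lean as log2 ratios. The number of neighbour ratios called was 0 in both comparisons with colesevelam when label numbers were summed. The smallest exact permutation p was then 0.0286 for 4 against 4 and 0.00794 for 4 against 5. Ratios without overlap between groups still had adjusted exact p-values of 0.167 and 0.200, so this count cannot show that a difference was lost. Without 1 library the number ranged from 0 to 1 against vehicle and from 1 to 2 against lean. Against lean, let-7e-5p over miR-99b-5p was also past the threshold without lean 2 or lean 6 (adjusted exact p 0.0303).

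Sample numbers in the titles did not pair libraries between groups. The correlation of same-numbered libraries of different groups had a median of −0.192 (−0.662 to 0.601), and 4 of 18 pairs were the best of their library. With the replicate block 0 members and 0 neighbour ratios were called, and the exact sign-flip test it needs cannot go below p = 0.0313. Depth limits let-7e-5p most, with a median of 21.4 counts in a library.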
